A study of Mus musculus with 8 samples.

Results

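The cytosolic ribosomal protein genes were taken as every row of the expression table whose mouse symbol is Rpl or Rps followed by a number and at most a short paralogue suffix. This rule, which uses names and no values, found 80 genes of 23337, 48 of the large subunit (Rpl) and 32 of the small subunit (Rps). It includes Rpl10a, whose protein is also the tag carried by the reporter of the mice studied. Of the 80 genes, 75 averaged 10 normalised reads or more in the 6 libraries compared and were tested, 43 of the large and 32 of the small subunit. The 5 others were Rpl10l, Rpl26, Rpl30, Rpl39l and Rpl3l.

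The cytosolic ribosome is assembled in the nucleolus from ribosomal RNA and 1 copy of nearly every ribosomal protein. Its protein genes are transcribed at high and nearly matched levels in every cell type, and most of their messages begin with a C followed by a run of pyrimidines, the terminal oligopyrimidine (TOP) tract. Through this tract the kinase mTOR and the binding protein Larp1 control translation of the whole family at once, which is why the family is often followed as a readout of growth. Endothelial cells, which line the blood vessels, grow and divide in the embryo at the stage studied.

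The libraries came from cells sorted by flow cytometry as endothelial from whole embryos at E15.5. All groups carried Cdh5-CreERT2(PAC), a recombinase under control of the endothelial cadherin gene that needs tamoxifen to enter the nucleus, and Rosa26fsTRAP, a Cre-dependent allele at Rosa26 for a green fluorescent fusion of ribosomal protein L10a. The genotype field of every sample reads wild type. In the tamoxifen group the pregnant mothers received tamoxifen by gavage at E12.5, and in the other group they did not. No group received tamoxifen without the recombinase, so the drug and recombination of the reporter cannot be told apart. The labels list 8 samples, 4 per group, and leave it unsaid whether each came from its own litter or embryo. The p-values therefore rest on a spread between samples that may be technical.

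The header of the table is 1 field short, with 9 fields over lines of 10. Counting the gene symbol as column 1, columns 3 to 5 are named as libraries without tamoxifen and columns 7 to 9 as libraries with tamoxifen wherever the header is laid, and these 6 were compared, 3 per group, numbered in table order. Column 6 changes group, and column 10 loses its name, with the placement of the header. Both are given apart. The values are the authors' normalised read counts, called normalised reads here, and the 6 libraries held 12212472 to 19908404 reads in genes. The endothelial cadherin gene Cdh5 was at 1978 to 5201 normalised reads in the 6 libraries, and all 15 endothelial markers were above 0. The 13 macrophage and leukocyte markers found were also all above 0 and had a mean log2 level of 10.83 to 11.56, above the 8.88 to 10.19 of the endothelial list. A level below is therefore that of the sorted mixture, in which fewer cells of a type and less RNA per cell cannot be told apart.

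The start sites of the genes show what the family shares. RefSeq start windows on GRCm38.p6 were found for 60 of the 80 genes. The search covered 30 bases either side of the annotated start, on the strand with the sequence of the message. A C followed by at least 7 bases that are each C or T was present in 33 of the 60 (55%). Of 27025 mouse genes searched in the same way, 20.61% had one. The sequence CGGAAGT, the core bound by ETS and GABP factors, was present on either strand of the 300-base window in 20 of the 60 (33.33%), against 7.204% of all genes. These are matches of letters and not measured sites, and a window without a match says only that these letters were not in it. The following 30-base windows are those of the reporter-related Rpl10a and of genes that the results below turn on. They are printed on the strand with the sequence of the message, with the pyrimidine run in capitals.
Rpl10a, chr17:28328572-28328601, plus strand: aagcgctctgCCTTCTTTCCggtttccgcg
Rps18, chr17:33955647-33955676, minus strand: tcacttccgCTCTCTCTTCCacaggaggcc
Rpl13a, chr7:45128722-45128751, minus strand: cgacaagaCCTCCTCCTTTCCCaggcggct
Rpl35a, chr16:33056469-33056498, plus strand: ggggcttgCCTTCCTCTTTCCgccatcttg
Rpl35, chr2:39005115-39005144, minus strand: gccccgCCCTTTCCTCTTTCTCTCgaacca
Rps12, chr10:23787181-23787210, minus strand: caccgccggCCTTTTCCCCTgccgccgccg
Rps26, chr10:128626484-128626513, minus strand: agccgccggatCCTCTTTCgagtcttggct
Rps6, chr4:86857349-86857378, minus strand: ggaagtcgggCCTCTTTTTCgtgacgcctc
Each printed run was found by the same rule, so their likeness was fixed by the search and says nothing about direction. The printed runs were 10 bases long in Rpl10a and Rps6, 11 in Rps18 and Rps12 and 8 in Rps26. They were 14 bases long in Rpl13a, 13 in Rpl35a and 18 in Rpl35. Run length was not compared with fold change over the family. Genes named below without a match, among them Rpl23 and Rps29, have no window printed. The 32 tested genes with a tract had a median log2 fold change of -0.06 and the 24 tested genes with a window but no tract a median of -0.08.

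As a whole the family took similar shares of the reads in the 2 groups. With the ribosomal RNA precursor Rn45s left out, the 80 genes held 3.56%, 3.96% and 3.79% of the reads in the libraries without tamoxifen and 3.76%, 3.55% and 3.77% in those with tamoxifen. The groups overlapped, and both the highest and a low share were in libraries without tamoxifen. Reads of large-subunit genes stood to those of small-subunit genes as 1.36, 1.34 and 1.33 to 1 without tamoxifen and as 1.31, 1.33 and 1.33 to 1 with it. Column 10 held 3.70%, inside the range of the 6, and column 6 held 1.25%.

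**Figure D1:**
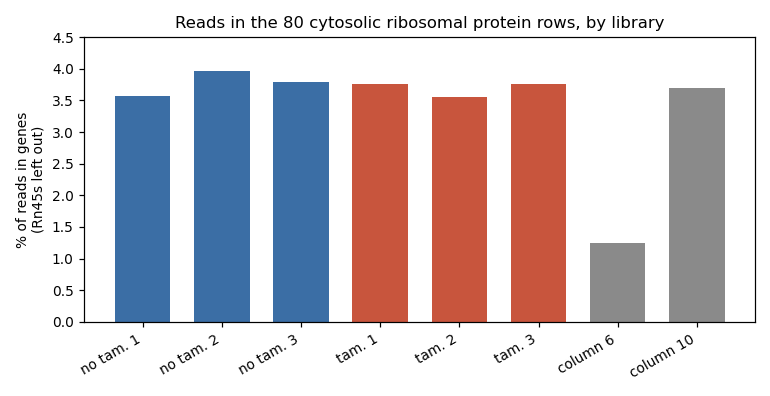
Reads in the 80 cytosolic ribosomal protein genes as a percentage of reads in all genes but Rn45s (vertical axis), 1 bar per library: without tamoxifen (blue), with tamoxifen (red), and the columns given apart (grey). The 6 compared libraries lie between 3.55% and 3.96%, and column 6 is at 1.25%.

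Column 6 was low for every gene of the family with a mean of at least 50. Its values were 0.348 times the 6-library mean at the median of these 73 genes, with a range of 0.211 to 0.562 times, and 4 genes of lower level (Rpl34, Rpl39l, Rpl30 and Rpl3l) were above their means there, at 2.04 to 3.53 times. Over 13405 tested genes outside the family the median was 0.922 times. The column held 8695745 reads in genes, 45.7% of them in Rn45s, and its connective tissue marker list had a mean log2 level of 12.96, against 5.80 to 10.73 in the 6 libraries. Its macrophage list was at 5.14 and its endothelial list at 7.61. The part of these values in the low ribosomal protein level was not tested. Since the header does not settle the group of column 6, a direction of the family would follow from where that column is put: its median log2 fold change was 0.34 with column 6 among the libraries without tamoxifen (and column 10 among those with it) and -0.39 with column 6 among those with tamoxifen. No gene of the family was called in either case.

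None of the 75 tested genes passed the threshold between the groups. limma with Benjamini-Hochberg adjustment over all 13480 tested genes called 0 higher and 0 lower at an adjusted p under 0.05, where 0.0445% of all tested genes were called, and the lowest adjusted p in the family was 0.369. Before adjustment, p was under 0.05 for 7 genes (9.33%), all lower, beside 9.01% of all tested genes, of which 4.89% were higher and 4.12% lower. edgeR called none, where it called 0.0371% of all genes. DESeq2 called 1, Rps18, as lower, where it called 2.04% of all genes, 1.83% as higher and 0.208% as lower. The median log2 fold change of the family was -0.05, beside -0.02 over all tested genes, and 44 of 75 (58.7%) were negative, beside 53.5%.

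Gene by gene, most measured fold changes of the family were small. Of the 75 genes, 63 (84%) had a log2 fold change between -0.25 and 0.25, beside 66.3% of all tested genes. The standard deviation of the fold changes was 0.18, beside 0.50. These comparisons were not matched for level. The mean log2 level was 11.54 to 11.74 for the family and 7.76 to 7.89 over all tested genes. The median standard error of a fold change was 0.12. Differences well above that size were also not resolved with 3 libraries per group, since Rps18 at -0.53 did not pass (limma adjusted p = 0.369). Large-subunit genes had a median of -0.06 (15 positive and 28 negative) and small-subunit genes one of -0.02 (16 positive and 16 negative). Connective tissue markers separated tamoxifen libraries 1 and 2 from the rest, with a list level of 10.31 and 10.73 against 6.91 in tamoxifen library 3 and 5.80 to 6.996 without tamoxifen. All 11 tested of 12 such markers were positive, and none of the 12 was at 0 in all 6 libraries. The cartilage list moved likewise, at 8.64, 8.27 and 4.65 with tamoxifen and 4.26 to 4.73 without it. The macrophage list was at 10.90, 10.83 and 11.56 with tamoxifen and 11.26 to 11.39 without it, and all 13 tested of its 15 markers were negative, with a median of -0.26. The ribosomal protein list was at 11.66, 11.54 and 11.74 in the same tamoxifen libraries and at 11.59, 11.73 and 11.71 without tamoxifen, so that tamoxifen library 1 lay inside the range without tamoxifen and library 2 below it. The part of these other cells in the ribosomal protein values was not tested.

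**Figure D2:**
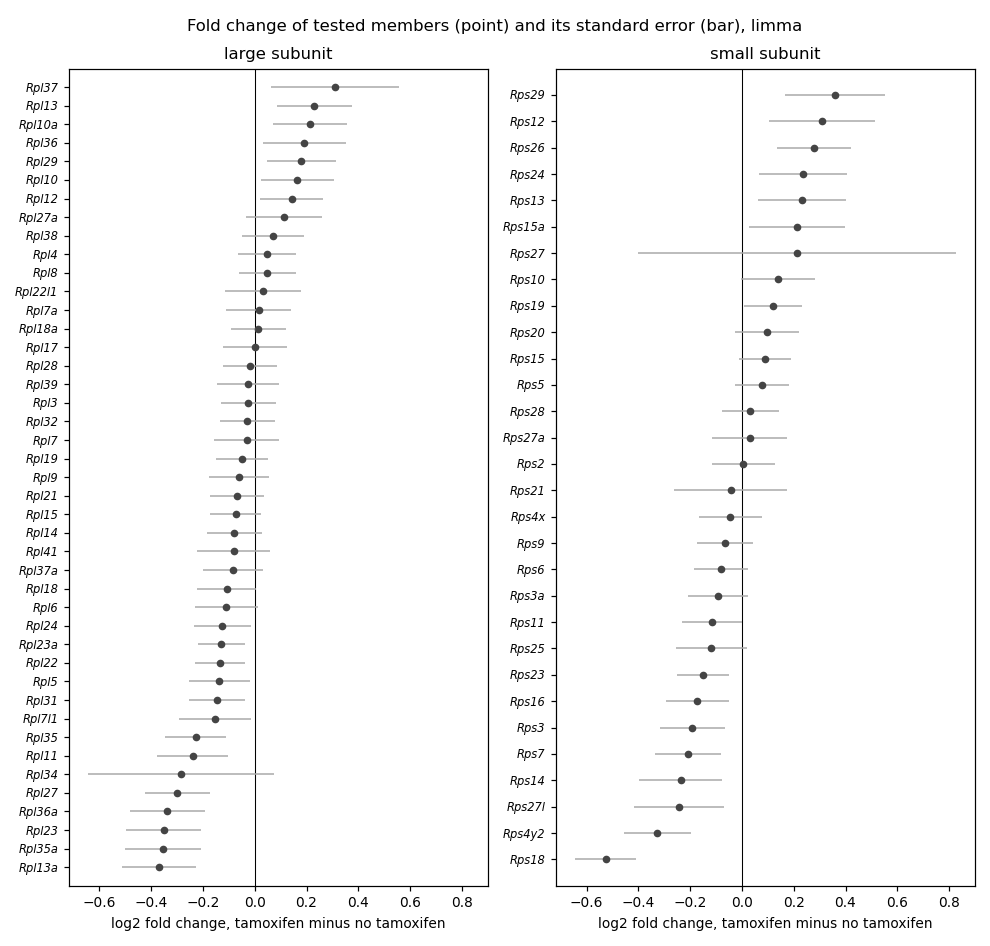
log2 fold change between the groups, tamoxifen minus no tamoxifen (horizontal axis), of 43 tested large-subunit genes (left) and 30 small-subunit genes (right), each point with its limma standard error. Rps18 lies lowest at -0.53 and Rps29 highest at 0.36, and most of the points lie within 0.25 of 0.

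Rpl10a encodes a protein near the exit site of transfer RNA on the large subunit, chosen as a tag because it lies on the ribosome's surface. Its gene lies at chr17:28328471-28331033 on the plus strand (GRCm38). It was at 3786, 3913 and 4866 normalised reads without tamoxifen and at 5216, 4101 and 5244 with tamoxifen, and at 1599 in column 6 and 4252 in column 10. The groups overlapped, with the third library without tamoxifen above the second with it. The log2 fold change was 0.21 ± 0.14 (SE, n = 3 per group) and did not pass (limma adjusted p = 0.665). Against the mean of the 74 other tested genes of the family, log2 Rpl10a stood higher by 0.35 ± 0.17 (SD, n = 3) without tamoxifen and by 0.60 ± 0.12 with it. That difference of 0.25 had an exact two-sided permutation p of 0.2, where 3 against 3 cannot go below 0.1. Reads of a Rosa26 fusion message would carry Rpl10a coding sequence and cannot be told apart here from reads of the gene itself, and 88.1% of the 50-base windows of its principal transcript also occur in transcripts of 5 other annotated genes. The Rosa26 locus transcript Gt(ROSA)26Sor was at 51.0 to 72.0 normalised reads without tamoxifen and at 65.2 to 75.8 with it, and did not pass the test (limma adjusted p = 0.772).

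Rps18 had the lowest p of the family. It encodes a protein of the head of the small subunit that contacts the large subunit across the interface, and lies at chr17:33951999-33956001 on the minus strand. It was at 4467, 4571 and 3720 normalised reads without tamoxifen and at 2795, 2835 and 3205 with it. All 3 tamoxifen libraries were below all 3 others. The log2 fold change was -0.53 ± 0.12 (SE), with a limma unadjusted p of 0.00175 and an adjusted p of 0.369. DESeq2 called it at -0.52 with an adjusted p of 0.00594. With tamoxifen library 3 left out, limma called it at -0.59 with an adjusted p of 0.00456. Leaving out any other single library gave -0.62 to -0.47, with limma adjusted p of 0.429 to 0.992, and no call. edgeR gave -0.50 with an adjusted p of 0.265. Putting column 6 among the libraries without tamoxifen and column 10 among those with it gave -0.16 (limma adjusted p = 0.96). Putting column 6 among those with tamoxifen gave -0.75 (limma adjusted p = 0.709). Column 10 was at 3045, within the tamoxifen range, and column 6 at 1587. Of its 50-base windows 86.7% were shared with 11 other genes, and 6.4% of its exon bases lie opposite exons of Vps52 on the other strand, so its counts could hold reads of other genes.

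The other genes of lowest p among those with a lower mean belong mostly to the large subunit, and none passed. Rpl13a, whose protein can leave the ribosome to silence messages in inflamed myeloid cells, was at 12008, 12946 and 9510 normalised reads without tamoxifen and at 7993, 9078 and 9478 with it. Its groups did not overlap, by a margin of the third library without tamoxifen over the third with it, and the log2 fold change was -0.37 ± 0.14 (SE; limma adjusted p = 0.514). Rpl23, which lies at the subunit interface, was at 3857, 4153 and 2849 against 2741, 2780 and 2888 normalised reads. Its groups overlapped, since the third library without tamoxifen lay with the 3 tamoxifen libraries. Rpl35a, a gene mutated in Diamond-Blackfan anaemia, was at 3005, 3870 and 2593 against 2332, 2518 and 2456 normalised reads. Rpl36a, on the X chromosome, was at 2103, 2500 and 1684 against 1579, 1699 and 1636 normalised reads. In both, the third library without tamoxifen was again the nearest to the tamoxifen libraries, and in Rpl36a it lay among them.

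Rpl27 and Rpl35, whose proteins lie on the solvent side of the large subunit and beside the exit of the peptide tunnel, were the remaining large-subunit genes named by this rule. Rpl27 had a log2 fold change of -0.30 ± 0.13 and Rpl35 one of -0.23 ± 0.12 (SE, limma adjusted p = 0.537 and 0.599), both without overlap of the groups. Of the exon bases of Rpl35, 71.2% lie opposite exons of Wdr38 or Arpc5l. Rps4y2, a row whose synonym in RefSeq is Rps4l and which GENCODE M21 annotates as a transcribed processed pseudogene, was at 325, 386 and 367 normalised reads without tamoxifen and 270, 307 and 282 with it. The log2 fold change was -0.33 ± 0.13 (SE; limma adjusted p = 0.519). In all, 10 genes had groups that did not overlap, every one lower with tamoxifen (13.3%), where 7.62% of all tested genes did so lower and 6.24% higher. Beside the ones above, except Rpl23 and Rpl36a, these were Rpl22, Rpl23a, Rpl24 and Rps23, with log2 fold changes of -0.15 to -0.12.

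The genes of lowest p with a higher mean were mostly of the small subunit, and all had overlapping groups. Rps29, a small zinc-binding protein of the small subunit's head, was at 2177, 1903 and 3042 normalised reads without tamoxifen and at 3486, 2450 and 3106 with it. Rps12, a protein of the beak of the small subunit, was at 5172, 4889 and 7891 against 8147, 5853 and 7952. Rps26, which lies beside the exit of the messenger RNA channel, was at 2777, 3133 and 3717 against 4301, 3328 and 4026. In each of these genes the third library without tamoxifen exceeded the second with tamoxifen. The log2 fold changes were 0.36 ± 0.19 for Rps29, 0.31 ± 0.21 for Rps12 and 0.28 ± 0.14 for Rps26 (SE), with limma adjusted p of 0.601, 0.661 and 0.597. With 1 library left out they ranged over 0.21 to 0.55, 0.18 to 0.53 and 0.18 to 0.39, each highest without the third library without tamoxifen. The others of this group were Rpl13, Rps24, Rps13 and Rpl29, at 0.18 to 0.24.

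**Figure D3:**
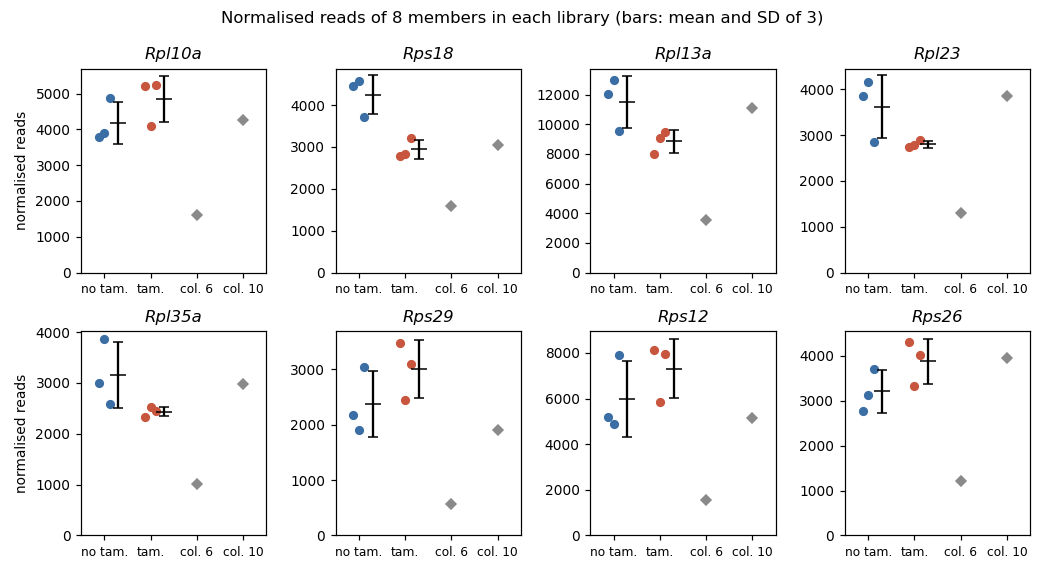
Normalised reads (vertical axis, from 0) of 8 genes in each library without tamoxifen (blue) and with tamoxifen (red), with the mean and SD of 3 beside them in black, and in columns 6 and 10 (grey). Rps18 and Rpl13a have groups that do not overlap, Rpl10a, Rpl23, Rps29, Rps12 and Rps26 have groups that do, and column 6 is the lowest library for each gene.

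The third library without tamoxifen lay near the tamoxifen libraries in gene after gene, so the spread inside the family was described without regard to group. After removal of each library's family mean from the log2 values of 73 genes, 81.2% of the remaining variance over the 6 libraries lay on 1 axis, on which some genes were high where others were low. The variance was 39.9 times that given by counting error alone. This ratio depends on depth. Per gene the variance was 0.0286 and the counting part 0.00072. The 76 mitochondrial ribosomal protein genes had 0.0414 and 0.0097, a ratio of 4.28. The description by this axis was chosen after the values were seen and carries no test. Near one end were Rpl37, Rps29, Rps12 and Rps24, and at the other Rps18, Rpl36a, Rpl35a, Rpl23 and Rpl13a, so both subunits stand at both ends. This axis was not limited to the family. The same computation placed the 6 libraries much alike for some other lists, by the absolute Pearson r of the library coordinates. It was 0.97 for 69 biogenesis factors, 0.97 for 76 mitochondrial ribosomal proteins and 0.94 for 20 TOP translation factors. The first axes of those lists held 49.7%, 42.4% and 60.9%. For 7 ribosomal protein genes outside the symbol rule r was 0.91, and for 19 polymerase I genes 0.85. It was lower for 13 ribosomal stress genes (0.59) and 26 mTOR and TOP regulators (0.49). These are descriptions over 6 shared libraries with no p. The 42 large-subunit genes alone put 83.4% on their first axis and the 31 small-subunit genes 79.0%.

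On this axis the libraries without tamoxifen stood at -1.20, -1.88 and 0.85 and those with tamoxifen at 1.46, -0.05 and 0.82 in log2 units summed over the genes' weights. The groups overlapped, and the third library without tamoxifen was higher than 2 of the 3 with tamoxifen. The ratio of Rps29 to Rps18 reads shows the same spread in 1 pair of genes: 0.487, 0.416 and 0.818 without tamoxifen, 1.25, 0.864 and 0.969 with it, 0.359 in column 6 and 0.627 in column 10. Here the groups did not overlap, and the pair was picked from the ends of the axis. A gene's weight on the axis and its fold change ranked alike (Spearman's rho 0.96 over 73 genes, with no p), and both come from the same 6 libraries. The genes at the ends of the axis are therefore largely those named above for their fold changes.

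The weights on the axis had weak relations to the structure of the genes. Over the 73 genes, Spearman's rho of the weight was 0.01 with exon length, -0.06 with GC content of the transcript, 0.10 with the share of windows found in other genes, 0.03 with the number of snoRNA genes inside, and -0.20 with the mean level. Among genes with at most 50% shared windows the first axis held 81.1%. Rn45s took 38.7%, 38.7% and 35.1% of the reads without tamoxifen and 29.4%, 33.7% and 33.3% with it. Of these 6, the 2 libraries of highest share were the 2 lowest on the axis and the library of lowest share was the highest, but the third library without tamoxifen had the third highest share and was the second highest on the axis. Column 6, with the highest share of all at 45.7%, was at -0.70, above both of the lowest, and column 10 at -0.93 with a share of 32.6%. The part of the Rn45s share in the axis was not tested.

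**Figure D4:**
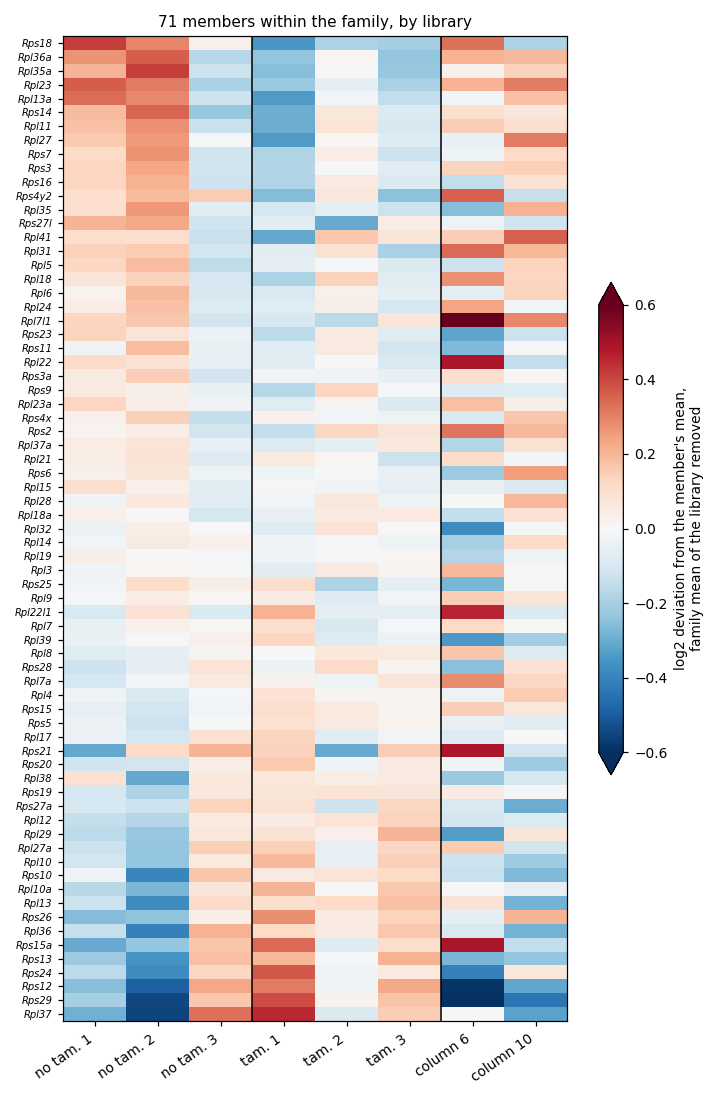
log2 deviation of each gene from its own mean over the 6 libraries after removal of the library's family mean (colour; red high, blue low, limits at 0.6), for 71 genes in the order of their axis weight (rows) and for 6 libraries and columns 6 and 10 (columns). Libraries 1 and 2 without tamoxifen are red at the top, where Rps18 stands, and blue at the bottom, where Rpl37 stands, and tamoxifen library 1 is the reverse.

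None of the genes known for roles beyond assembly passed the test. Rps6, whose protein is phosphorylated downstream of mTOR, was at 5747, 6575 and 5990 normalised reads without tamoxifen and 5881, 5412 and 6003 with it. Rpl5 and Rpl11, which as free proteins bind Mdm2 and so link faulty ribosome assembly to p53, had log2 fold changes of -0.14 ± 0.12 and -0.24 ± 0.14 (SE, limma adjusted p = 0.742 and 0.620). Rps19, the gene most often mutated in Diamond-Blackfan anaemia, was at 0.12 ± 0.11. Rpl38, known in mouse embryos for its effect on translation of Hox messages, was at 0.07 ± 0.12. Neither passed (limma adjusted p = 0.766 and 0.890). The steadiest gene over the 6 libraries was Rpl19, with 3810 to 4416 normalised reads and a coefficient of variation of 5.51%, and among genes with a mean of at least 50 the most variable was Rpl37, with 902 to 1734 and 27.4%.

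The family is scattered over the genome, on 19 chromosomes, with 13 genes on chromosome 7, 8 on chromosome 17 and 7 on chromosome 11. The 4 genes on the X chromosome (Rpl10, Rpl36a, Rpl39 and Rps4x) had a median log2 fold change of -0.04, 1 of them positive. Within their bounds 28 genes hold 54 small nucleolar RNA genes, which guide the modification of ribosomal RNA, with 5 of them in Rpl4 and 4 in Rpl13a. The 27 tested host genes had a median of -0.02 (13 positive and 14 negative) and the 48 tested genes without one a median of -0.06 (18 positive and 30 negative).

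Levels of different genes were compared per kilobase of annotated exon. Rpl41, whose protein is the shortest of the ribosome, had the highest value at 7561 normalised reads per kilobase, followed by Rps2 (7108), Rps3a (6455), Rpl36 (6429) and Rpl8 (6041). The median of the 75 genes was 2138. The lowest were Rps27 (11.9), Rpl34 (17.6), Rpl7l1 (261), Rpl22l1 (262) and Rps4y2 (342). The order depends on the length used: per kilobase of the principal transcript the median was 5716, and the 2 orders had a Spearman's rho of 0.77 over 75 genes. Rpl41 stood first and Rps27 last under both.

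**Figure D5:**
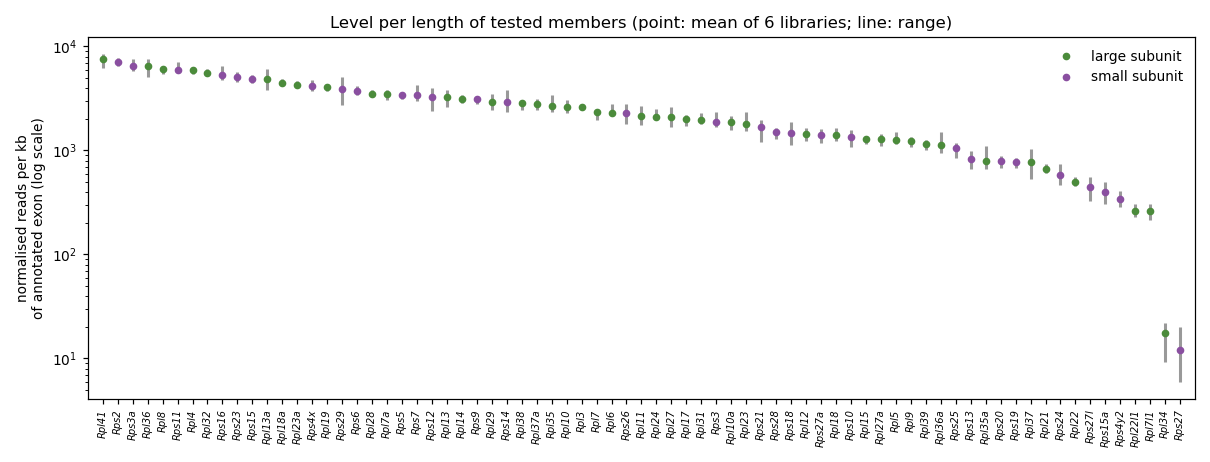
Normalised reads per kilobase of annotated exon (vertical axis, log scale) of 73 tested genes, ordered by their mean over 6 libraries (points; green large subunit, purple small subunit), with the range over the libraries (grey lines). Levels run from 7561 for Rpl41 to 11.9 for Rps27, and Rpl34 and Rps27 stand apart below 20 while the next gene, Rpl7l1, is at 261.

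4 genes of core ribosomal proteins were listed at or near 0. Rpl26 was at 0 in all 6 libraries, where 3 reads would be the upper limit of a count of 0. Rpl30 had 0 to 3.04 normalised reads. Rps27 had 8.68, 6.48 and 19.0 without tamoxifen and 6.15, 13.3 and 21.04 with it, and Rpl34 had 24.6 to 58.3. Of the 50-base windows of their principal transcripts, 98.6% (Rps27), 71.3% (Rpl26), 50.6% (Rpl34) and 47.8% (Rpl30) also occur in transcripts of other genes. Over the family the median was 53.5%, 45 of 80 genes were above 50%, and Rps12 (90.1%) and Rps18 (86.7%) still had 4889 to 8147 and 2795 to 4571 normalised reads. The treatment of reads with several matches is not stated in the labels or the file, and the part of shared sequence in these low values was not tested.

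The paralogues took a wide range of shares beside their parent genes, with overlapping groups in each pair. Rpl22l1, which can replace its parent Rpl22 in the ribosome, made up 31.2%, 34.3% and 33.6% of the pair per kilobase without tamoxifen and 38.8%, 33.3% and 34.9% with it. Rpl7l1 made up 8.92% to 11.2% of the pair with Rpl7. Rps4y2 made up 6.34% to 9.23% of the pair with Rps4x. Rpl3l, known from heart and skeletal muscle, made up 0.0645% to 0.276% of the pair with Rpl3, and its 2.603 to 11.4 normalised reads were highest in tamoxifen library 2. Rpl39l and Rpl10l, the testis paralogues of Rpl39 and Rpl10, were at 0.950 to 9.12 and at 0 to 0.761 normalised reads. Rps27l made up 95.8% to 98.9% of the pair with Rps27, in which Rps27 itself is listed near 0, and its own level was 269 to 449 normalised reads.

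No gene passed the test among the ribosomal protein genes that the symbol rule leaves out or the factors that make and use ribosomes, lists chosen from background knowledge. Of 7 ribosomal protein genes outside the rule, 5 were positive and 2 negative, with a median log2 fold change of 0.13. The stalk protein gene Rplp0 was at 13127, 14282 and 15002 normalised reads without tamoxifen and 16132, 14654 and 17154 with it, and Rpl36al, the autosomal copy of Rpl36a, was at 1043, 1069 and 1006 against 688, 737 and 924. Rplp0 had groups that overlapped and Rpl36al groups that did not (log2 fold change -0.42 ± 0.13, SE; limma adjusted p = 0.462). With 7 genes, their first axis held 84.6% of the variance within the list.

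Of 21 other genes with TOP messages, mostly translation factors, 3 were positive and 18 negative, with a median of -0.09. Hnrnpa1 was the lowest of them at -1.05 ± 0.39 on the log2 scale (SE; limma adjusted p = 0.501), with only 15.4 to 57.3 normalised reads. Of 69 ribosome biogenesis factors 20 were positive and 49 negative (71%), with a median of -0.10, beside 53.5% negative over all tested genes. Dkc1, the pseudouridine synthase of the nucleolus, was at 922, 1079 and 884 normalised reads without tamoxifen and 778, 739 and 780 with it, and its partner Nhp2 at 935, 1050 and 799 against 568, 722 and 789. Both were lower in all 3 tamoxifen libraries than in any other (limma adjusted p = 0.475 and 0.499). In this list 14 of 69 (20.3%) were lower without overlap and 1 higher, beside 7.62% and 6.24% of all tested genes. Of 20 genes of RNA polymerase I and its factors 7 were positive and 13 negative, with a median of -0.11.

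Of 26 regulators around mTOR, Myc and the TOP tract, 14 were positive and 12 negative, with a median of 0.01. Of 13 genes of ribosomal stress and surveillance 8 were positive and 5 negative, with a median of 0.07. The mitochondrial ribosome, a separate particle with its own protein genes, had 21 positive and 55 negative (72.4%) of 76, with a median of -0.10, and 11 of 76 (14.5%) were lower without overlap, beside 7.62% of all tested genes. The share of negative genes was thus 85.7% for the TOP translation factors, 72.4% for the mitochondrial list, 71% for the biogenesis factors and 65% for the polymerase I list, beside 58.7% for the cytosolic family. None of these differences was tested.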

How the data were processed

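The deposited table gives, per the file headers, 8 libraries of a signal unit, read counts per gene normalised by the authors. Per the submitters' processing notes, the tools were STAR, DESeq2 and HTSeq 0.11.2 and the builds hg38 and mm10, without roles; use of strand and of multiple matches is not stated in the sources used here. Dividing by the value of 1 read gave whole numbers within 0.001 for 100% of values per column, and these recovered reads served for depth and count tests. The groups were taken from the column names, and 1 value column was not used.

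Genes with a mean of at least 10 over 6 libraries were tested with limma 3.58.1 (R 4.3.3) on log2(value + 1), with a mean-variance trend and Benjamini-Hochberg adjustment over 13480 genes at 0.05. This scale understates changes of low genes. edgeR 4.0.16 and DESeq2 1.42.0 on recovered reads, other pseudocounts, filters, scalings and column sets, and leaving out each library were alternatives. Symbols were matched to GENCODE M21 (78 directly, 2 through a RefSeq synonym). Shares of 50-base windows come from its principal transcripts, and start windows from RefSeq.

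Named genes were the 8 of lowest p in each direction with a mean of at least 50, Rpl10a, paralogues with their parents, the 5 highest and 5 lowest per length, and the 3 of lowest p of other lists, of which some are given only by counts. Genes described for roles, variability or an end of the axis, and the genes without overlap, were added after their values were seen. Counts and medians cover the whole family, but 2 genes are not reported here by name or drawn. The members and lists were chosen with earlier results of these data known. The limit for a count of 0 covers counting error only.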

Additional observations from a re-analysis of the deposited data

How the results depend on the processing

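The comparison was limited by 3 libraries per group and by the header. With its names over the last 8 value columns the median log2 fold change of the family was 0.34 in place of -0.05, and 6 genes named for lower means turned positive: Rpl13a 0.14, Rpl23 0.13, Rpl27 0.23, Rpl35 0.31, Rpl35a 0.13 and Rpl36a 0.11. With the names over the first 8 columns the median was -0.39, and 8 genes named for higher means turned negative: Rpl10a -0.19, Rpl13 -0.15, Rpl29 -0.30, Rps12 -0.25, Rps13 -0.24, Rps24 -0.27, Rps26 -0.14 and Rps29 -0.24. The first adds column 6 to the libraries without tamoxifen and column 10 to those with it, and the second adds column 6 to those with tamoxifen. The first value column, which has a name only with the names over the first 8 columns, was not used. That placement was therefore run without it, and its full form was not run. Genes called lower numbered 1 with DESeq2 and 0 to 1 over the alternatives that leave out 1 library, in each case Rps18. No alternative called a gene higher. For Rpl10a the log2 fold change was 0.14 to 0.33 with 1 library left out, and its difference to the rest of the family 0.17 to 0.34. Other scalings cancel in that difference. The median level per kilobase was 5033 with the longest coding transcript and 5716 with the principal transcript, and the mean share of reads 2.43% with Rn45s included, in place of 2138 and 3.73%. The first axis held 77.7% to 86.7% with 1 library left out, 75.9% with column 10 added and 60.2% with columns 6 and 10 added, alternatives chosen after seeing the data. The replicate numbers are table order, so whether samples were paired could not be judged. The log2 deviations from each gene's group mean were compared between libraries of the 2 groups. Their correlations were 0.20, 0.04 and 0.34 for the 3 same-numbered pairs and -0.33 to 0.33 for the other pairs. With the replicate number as a block, 0 genes were called, and the adjusted p of Rpl10a was 0.553 and that of Rps18 0.173. Recomputed fold changes cover the 16 genes named for the lowest p in each direction, and the remaining alternatives left each of these on its side of 0 and of the threshold. With 1 library left out, the values of Rpl13, Rpl29, Rps13 and Rps24 spanned 0.09 to 0.40, those of Rpl13a, Rpl23, Rpl27, Rpl35, Rpl35a and Rpl36a -0.51 to -0.12, and the median of the family -0.09 to 0.01.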
